A study of Homo sapiens with 4 samples.

Results

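Histone genes were followed through the depletion of MLL-AF9 from THP1, a human acute monocytic leukemia line that carries this fusion of MLL with MLLT3 (AF9). The members were all genes whose array name marks a clustered histone gene (HIST1 to HIST4, followed by the histone class) or a variant histone gene (H1F, H2AF or H3F), read from the brightest probe of each gene. Of 82 such names, 77 were measured, 64 of 68 clustered and 13 of 14 variant genes, among 17938 measured genes in all. The probes of HIST1H4G, HIST2H2BA, HIST1H2BA, HIST2H4A and H1FOO carried a quality weight of 0 and were well above background on 0 arrays. The knockdown group held the samples labelled siRNA3 and siRNA4, both directed at the fusion transcript, and the control group held control siRNA1 and control siRNA2, which are non-targeting. Cells of both groups were transfected on days 0, 3 and 6, kept in 10% serum until day 6 and then in 0.5%, and harvested on day 8. Each of the 4 samples was RNA pooled from 5 experiments, hybridised to 1 single-colour Agilent array. Thus 2 knockdown arrays were set against 2 control arrays, and the 2 samples of a group differed in siRNA. The p-values measure the spread between pools, in which differences between siRNAs are included and those between the 5 experiments are not. All 4 arrays sat on 1 slide, with the knockdown samples at the first positions and the controls at the last, and treatment and position cannot be told apart.

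Histones package DNA into nucleosomes. H2A, H2B, H3 and H4 form the core around which DNA is wound, and the linker histone H1 binds where DNA enters and leaves it. The clustered genes are replication-dependent. They are small, without introns, lie in groups in the genome, and are transcribed in S phase, when new chromatin needs histone protein. Their mRNAs end in a stem-loop and not in a poly(A) tail. Variant histones are made outside S phase as well, from genes whose mRNAs are mostly polyadenylated, and replace the clustered types at chosen sites. The labelling kit primes from poly(A) tails, so that the signal of a clustered gene depends on the share of its mRNA that is primed all the same, and this share was not measured.

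The probe sequences of the clustered linker histone genes that were well above background on all arrays are given here because the result with the lowest p among all histone genes lies in this family. Each is written 5′ to 3′ as on the array, with its position in hg19. Clustered histone genes lack introns, so each probe lies within the only exon of its gene.
HIST1H1E (chr6:26156928-26156987, + strand): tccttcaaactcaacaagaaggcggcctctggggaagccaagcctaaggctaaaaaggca
HIST1H1C (chr6:26056050-26056109, - strand): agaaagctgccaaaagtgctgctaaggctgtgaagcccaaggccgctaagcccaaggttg
HIST1H1D (chr6:26234699-26234758, - strand): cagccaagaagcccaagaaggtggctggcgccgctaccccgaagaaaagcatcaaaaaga
HIST1H1B (chr6:27834629-27834688, - strand): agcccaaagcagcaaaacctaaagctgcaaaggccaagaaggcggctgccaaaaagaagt
The longest run of identical bases that any of the 6 clustered H1 probes shared with another histone probe was 12 of 60 bases. Of 17 H2B probes 10 shared a run of at least 20 bases with the probe of another member, against 6 of 15 for H2A, 3 of 13 for H3 and 5 of 13 for H4, with a longest run of 32 bases in H2B. In all, 24 of 64 clustered probes and 0 of 13 variant probes shared such a run. These runs compare probes with probes, which lie at different places in their transcripts, and do not show how well a probe matches the transcript of another gene. The signal that any clustered gene, HIST1H1E included, takes from near-identical neighbours was not measured.

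The 150 bases before the start of the same genes are printed because the clustered H1 genes share an element that was found in 0 of the clustered core histone promoters. They are from RefSeq on GRCh38.p14, in the direction of the gene. Capitals mark matches, on either strand, to the H1 box (AAACACA), the CCAAT box (CCAAT) and the TATA box (TATAAA). The variant linker histone gene H1FX is shown beside them.
HIST1H1E (chr6:26156179-26156328, + strand): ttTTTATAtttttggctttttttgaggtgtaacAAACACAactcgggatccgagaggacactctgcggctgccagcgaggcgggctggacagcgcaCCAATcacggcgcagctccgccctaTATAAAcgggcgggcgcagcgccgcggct
HIST1H1C (chr6:26056471-26056620, - strand): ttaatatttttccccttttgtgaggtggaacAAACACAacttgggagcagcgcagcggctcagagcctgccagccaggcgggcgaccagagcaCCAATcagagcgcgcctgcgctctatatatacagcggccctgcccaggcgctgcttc
HIST1H1D (chr6:26234988-26235137, - strand): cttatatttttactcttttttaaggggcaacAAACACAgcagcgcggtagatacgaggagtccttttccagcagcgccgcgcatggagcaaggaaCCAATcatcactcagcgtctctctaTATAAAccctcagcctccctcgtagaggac
HIST1H1B (chr6:27867589-27867738, - strand): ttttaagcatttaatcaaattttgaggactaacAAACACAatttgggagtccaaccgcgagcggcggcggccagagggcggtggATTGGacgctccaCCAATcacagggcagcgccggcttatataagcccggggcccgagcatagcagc
H1FX (chr3:129316287-129316436, - strand): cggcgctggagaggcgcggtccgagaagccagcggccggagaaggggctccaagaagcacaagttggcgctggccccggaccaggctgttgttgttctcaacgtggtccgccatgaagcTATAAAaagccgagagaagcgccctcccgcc
A promoter was found for 71 of the 77 members, and motifs were counted in the 250 bases before the start. The H1 box was in 6 of 6 clustered H1 promoters, in 1 of the 2 variant H1 promoters found (H1FNT, and not H1FX) and in 4.95% of all 27305 promoters. The octamer ATTTGCAT, bound by POU factors such as OCT1, was in 10 of 14 H2A and 13 of 17 H2B promoters, against 1.66% of all promoters. All clustered H1, H2A, H2B and H3 promoters held CCAAT, and 3 of 11 H4 promoters did, against 33.0% of all promoters. TATAAA was in 38 of 59 clustered promoters and in 11.1% of all.

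The labels and the scale were checked first. Both MLLT3 probes were lower in the knockdown samples. The brighter read 6.82 and 6.87 on the log2 intensity scale in siRNA3 and siRNA4 against 7.59 and 7.61 in the controls, a log2 fold change of -0.76 (limma, adjusted p = 0.0639), and the other gave -0.63. Of 4 MLL probes the brightest gave -0.41 (adjusted p = 0.403) and the others -0.08, -0.03 and 0.05. Both genes are also expressed from intact alleles, and whether a probe lies in the part kept in the fusion was not examined. All 10 measured genes of a list of 12 myelomonocytic markers, such as the granule protease ELANE, were well above background on every array. Their summed intensity was 18.7 to 18.8 on the log2 scale in the knockdown samples and 19.1 to 19.2 in the controls, with ELANE lower by p under 0.005 (-0.47, adjusted p = 0.277). This sum rests mostly on the brightest of them. Of the 10 markers 7 had a log2 fold change below 0, with a median of -0.07, and CTSG gave -0.43 while CSF1R read higher in both knockdown samples than in both controls (0.19). The summed intensity of T cell, B cell, erythroid and fibroblast or epithelial markers lay between 7.14 and 11.2 in every sample. It was higher in both knockdown samples than in both controls for the 5 T cell markers, all of them well above background on every array (8.36 to 8.47 against 8.21 to 8.27), with LCK higher (0.52), and for the 4 erythroid markers (9.00 to 9.13 against 8.81 to 8.92). The part of these markers in the histone values was not tested. All 13 variant and 62 of 64 clustered genes were well above background on all arrays, and no histone probe was saturated.

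Among histone genes, HIST1H1E alone passed the threshold of an unadjusted p under 0.005 in limma that the study used. This gene encodes linker histone H1.4, an abundant H1 subtype of many cells. Its log2 intensity was 11.45 in siRNA3, 11.07 in siRNA4, 12.20 in control siRNA1 and 12.25 in control siRNA2. Both knockdown samples lay below both controls, and the gap to the controls, -1.18 to -0.75 over the 4 pairs, exceeded the difference within either group. HIST1H1E fell by 0.97 on the log2 scale (SE 0.14, n = 2 per group), to 51.1% of the control level. Adjusted over all 26219 probes its p was 0.0707, so that 0 histone genes passed an adjusted p under 0.05 (0.123% of all genes did), and 5 of 77 passed an unadjusted p under 0.05 (8.00% of all genes did). The background was 1.33% of all genes called at p under 0.005 (0.702% lower and 0.630% higher), and 1 of 77 histone genes was called. Its log2 fold change lay between -1.16 and -0.78 over 15 alternatives, and the call was lost in 3 of them. These were the background-subtracted signal scaled to its 75th percentile (-0.91, adjusted p = 0.554), the omission of control siRNA1 (-0.99, adjusted p = 0.945) and that of control siRNA2 (-0.94, adjusted p = 1). With 1 sample left out the spread comes from the group that still holds 2 samples, and the lone sample is assumed to vary like them. The adjusted p ranged from 0.027 to 1 over all alternatives.

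The other clustered H1 genes gave no such difference. HIST1H1C (H1.2), on the brightest H1 probe, read 12.95 and 13.00 in siRNA3 and siRNA4 and 12.96 and 13.31 in control siRNA1 and control siRNA2. Its knockdown values fell around that of control siRNA1, and control siRNA2 stood above the other samples (log2 fold change -0.16, adjusted p = 0.828). HIST1H1D (H1.3) read 12.22 and 12.37 against 12.11 and 12.32, with overlapping groups (0.08, adjusted p = 0.919). In HIST1H1B (H1.5) the knockdown samples disagreed with each other. It read 11.58 in siRNA3, above both controls at 11.27 and 11.42, and 10.82 in siRNA4, below both. The difference of 0.76 between the knockdown samples was larger than the mean difference from the controls (-0.15, adjusted p = 0.910). HIST1H1A (H1.1) was not well above background in either control, and the testis gene HIST1H1T was not in either knockdown sample. Their folds are not described, but both genes enter the counts and medians of clustered genes. The clustered H1 median was -0.05 with them and -0.15 with dim probes left out.

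**Figure D1:**
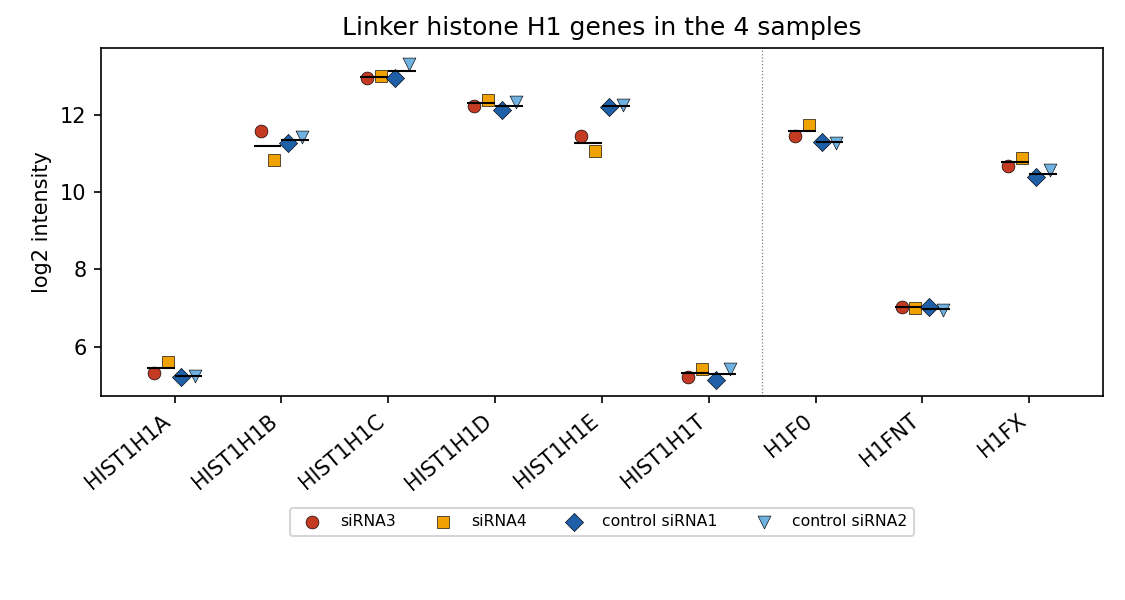
Log2 intensity of the 6 clustered (left of the dotted line) and 3 variant linker histone genes in each of the 4 samples, with a black line at each group's mean. HIST1H1E lies at 11.45 and 11.07 in the knockdown samples and at 12.20 and 12.25 in the controls. Heights of different genes come from different probes and are not comparable, and HIST1H1A and HIST1H1T are near background.

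The variant linker histone genes H1F0 and H1FX lay above both controls in both knockdown samples, without passing the threshold. H1F0 (H1.0), which is known to accumulate in cells that stop dividing or differentiate, read 11.44 in siRNA3 and 11.73 in siRNA4 against 11.30 and 11.28 in the controls. H1FX (H1.10) read 10.66 and 10.87 against 10.38 and 10.57. In both genes siRNA4 was the higher knockdown sample. The log2 fold changes were 0.30 (SE 0.13, adjusted p = 0.609) for H1F0 and 0.29 (SE 0.13, adjusted p = 0.617) for H1FX. Both had an unadjusted p under 0.05. After background correction by normexp and quantile normalization H1F0 did pass it (0.38, adjusted p = 0.349). Over all alternatives its log2 fold change lay between 0.16 and 0.45, and that of H1FX between 0.19 and 0.39. The third measured gene of this kind, the testis gene H1FNT, read 7.03 and 7.00 against 7.01 and 6.95, with a difference of 0.03 within the spread of the samples.

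Of the variant H2A genes, which mark promoters, DNA damage or silent chromatin, none passed the threshold. H2AFJ (H2A.J), known to accumulate in senescent cells, read 12.76 and 12.97 in the knockdown samples against 12.60 and 12.73 in the controls, with no overlap (0.20, adjusted p = 0.750). Its second, dimmer probe gave 0.07. H2AFX, the variant phosphorylated at DNA breaks, read 12.61 and 12.63, between the controls at 12.40 and 12.80. H2AFZ (H2A.Z) read 15.42 and 15.38 against 15.36 and 15.55, and its relative H2AFV read 16.39 and 16.57 against 16.51 and 16.68. The groups overlapped in both (log2 fold changes -0.06 and -0.12). The second, dimmer probe of H2AFV gave 0.12, with both knockdown samples above both controls, so that the probes of this gene disagreed. H2AFY (macroH2A1), found on silent chromatin, read 15.49 and 15.55 against 15.59 and 15.58. Its groups did not overlap, with a log2 fold change of -0.06 (adjusted p = 0.927) that turned to 0.03 after cyclic loess normalization. H2AFY2 (macroH2A2) read 6.88 and 7.12 against 7.06 and 7.08, and the testis genes H2AFB2 and H2AFB3 gave 0.02 and -0.07, all with overlapping groups.

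H3F3A and H3F3B encode the same protein, H3.3, which is laid down outside replication. H3F3A read 17.37 and 17.23 in the knockdown samples against 17.39 and 17.49 in the controls, a log2 fold change of -0.14 (adjusted p = 0.822) without overlap of the groups. Its other probes disagreed, at -0.25 and 0.06. H3F3B read 15.62 and 15.81 against 15.73 and 15.80 (-0.05), and its second probe gave 0.14. The direction of H3.3 thus depended on the probe.

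The 13 variant genes together had a median log2 fold change of -0.05, with 7 below 0, and the 64 clustered genes a median of -0.08, with 48 below 0. Over all genes the median was -0.02 with 56.2% below 0. Under other scalings 38 to 54 clustered genes were below 0. In the scalings with 38 and 54, 49.5% and 63.8% of all genes were. The variant median turned to 0.03 after quantile normalization, cyclic loess normalization and normexp with quantile normalization. Both knockdown samples lay below both controls in 13 clustered genes (20.3%) and above both in 4 (6.25%), against a background of 21.2% and 15.0% of all genes. In variant genes these counts were 2 and 3 of 13. Clustered genes below both controls were 7 after quantile normalization, where 19.6% of all genes were, 7 after cyclic loess normalization, where 20.1% were, and 6 after normexp and quantile normalization, where 20.1% were. Their share was thus near the background on the deposited values and below it after these normalizations. The counts also moved with single samples. With control siRNA1 left out, both knockdown samples lay below the other control in 53 of 64 clustered genes, and in 44.3% of all genes. With control siRNA2 left out this count was 14, and 27.9% of all genes. Both knockdown samples then lay above the remaining control in 20 clustered genes, and the share of all genes above it was not counted. With siRNA3 left out, siRNA4 lay below both controls in 37 clustered genes and in 32.1% of all genes. With siRNA4 left out, siRNA3 did so in 20, and in 47.0% of all genes. The median went from -0.22 without control siRNA1 to 0.01 without control siRNA2.

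**Figure D2:**
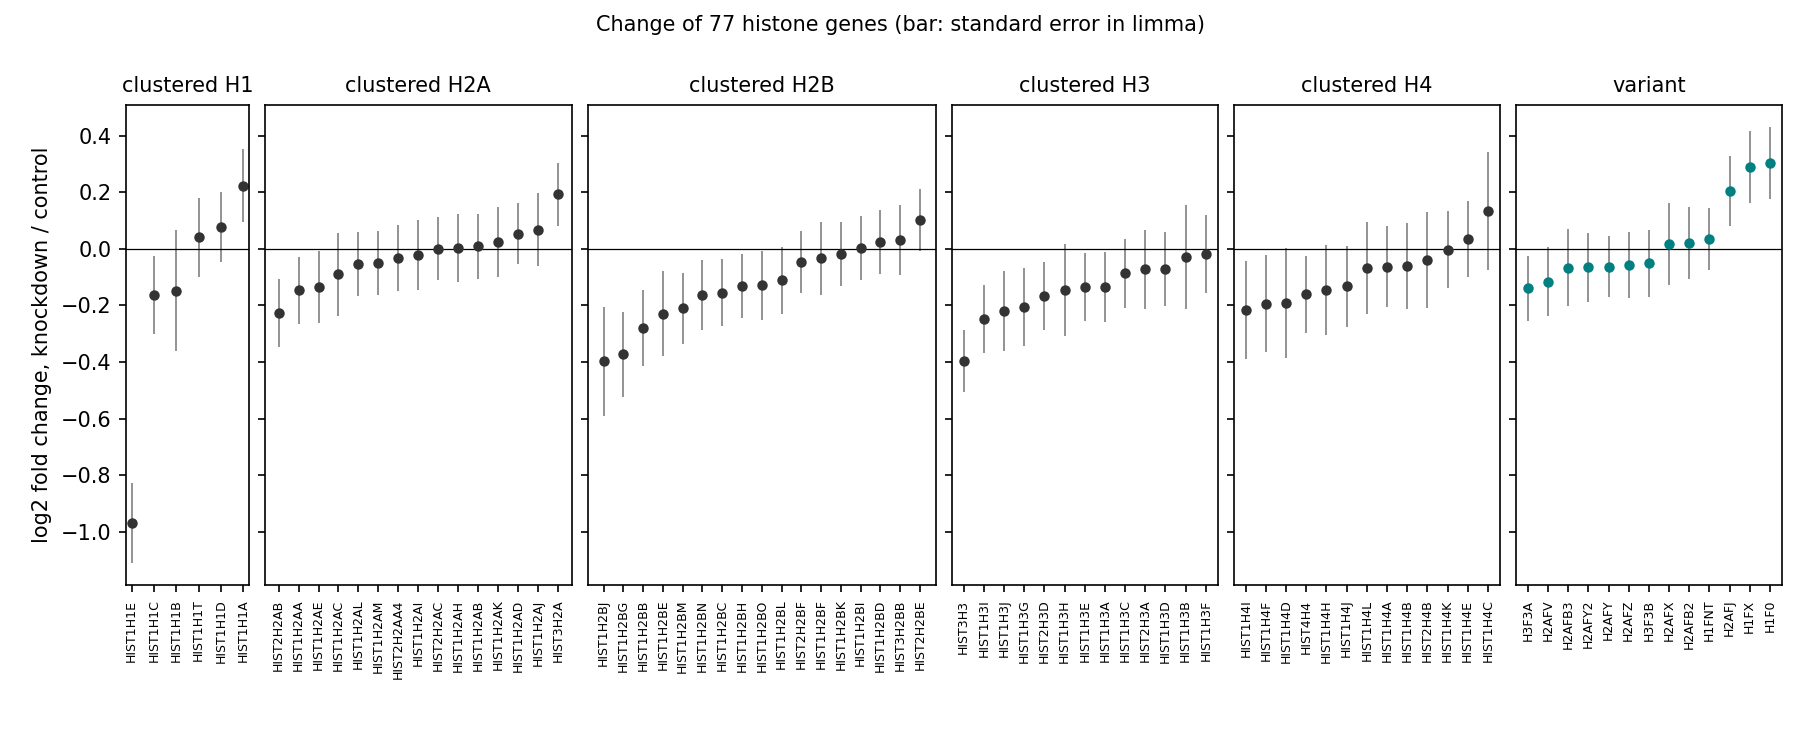
Log2 fold change, knockdown over control, of all 77 measured histone genes by class, sorted within each panel, with bars of 1 standard error from limma (n = 2 per group). HIST1H1E at -0.97 stands apart from the other genes, which lie between -0.40 and 0.30. HIST1H1A and HIST1H1T are plotted though near background.

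Among core histones, all 13 H3 genes had a log2 fold change below 0, with a median of -0.14. This was not so under every scaling, since 9 of 13 were below 0 after quantile normalization (median -0.08) and 8 of 13 after normexp and quantile normalization (median -0.04). The median also moved with single samples, to -0.25 without control siRNA1 and -0.03 without control siRNA2, and for siRNA3 minus control siRNA1 it was 0.04. HIST3H3, the gene of the testis variant H3t, gave the lowest p of this class. Its probe shared its longest run, of 14 bases, with that of H3F3A, and a run of the same length with that of HIST1H3C. The probe is shown with the run shared with H3F3A in capitals.
HIST3H3 (chr1:228612646-228612705, - strand, hg19): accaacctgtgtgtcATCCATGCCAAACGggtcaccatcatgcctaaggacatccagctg
It read 15.80 and 15.83 in the knockdown samples and 16.25 and 16.17 in the controls. The groups were clearly apart (log2 fold change -0.40, SE 0.11, adjusted p = 0.405), just outside the threshold. This value depended on the processing. It was called in 3 alternatives with the same estimate, lay at -0.11 after quantile normalization, and was 0.002 (adjusted p = 0.996) after normexp and quantile normalization. How much of this signal comes from other H3 transcripts was not tested. HIST1H3I (10.03 and 9.94 against 10.13 and 10.33) and HIST2H3D (15.00 and 15.03 against 15.07 and 15.29) also had both knockdown samples below both controls. HIST1H3J read 11.20 and 10.91 against 11.15 and 11.40, with siRNA3 between the controls.

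H2B was the core class with the most genes lacking overlap. Of 17 genes 7 lay below both controls and 1 above, where 21.2% and 15.0% of all genes lay. This was counted by class on the values without normalization only. The H2B median of -0.13 became -0.09 after quantile normalization, and -0.08 after cyclic loess normalization and after normexp with quantile normalization. HIST1H2BJ read 10.51 in siRNA3 and 9.84 in siRNA4 against 10.54 and 10.60 in the controls. Only siRNA4 stood clear of them, and the log2 fold change of -0.40 (SE 0.19, adjusted p = 0.675) became -0.07 without siRNA4 and -0.73 without siRNA3. The last value passed the threshold (adjusted p = 0.518), with the spread taken from the 2 controls alone. HIST1H2BG read 10.10 and 9.72 against 10.18 and 10.39 (-0.37, SE 0.15, adjusted p = 0.596), with -0.18 without siRNA4 and -0.56 without siRNA3. HIST1H2BB read 11.30 and 11.00 against 11.34 and 11.51 (-0.28, adjusted p = 0.675), with -0.13 and -0.43 under the same omissions. In these genes too siRNA4 was the lower knockdown sample. HIST1H2BE read 8.87 and 8.51 against 8.79 and 9.04, with siRNA3 between the controls. The bright probes of HIST1H2BL (12.75 and 12.77 against 12.78 and 12.97) and HIST1H2BH (12.60 and 12.63 against 12.67 and 12.82) had both knockdown samples below both controls by narrow margins. HIST2H2BE, a gene that also yields polyadenylated mRNA, read 7.23 and 7.26 against 7.17 and 7.11 and was the H2B gene with both knockdown samples above both controls (0.10, adjusted p = 0.873).

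H2A genes centred on 0, with 8 of 15 below 0 and a median of -0.02 that turned to 0.01 after quantile normalization. HIST2H2AB read 13.69 and 13.47 against 13.79 and 13.82, both knockdown samples lower (-0.23, adjusted p = 0.711). HIST3H2A read 6.45 and 6.32 against 6.20 and 6.19, both higher (0.19, adjusted p = 0.741). HIST1H2AK (14.19 and 14.10 against 14.00 and 14.24) and HIST1H2AJ (14.02 and 13.91 against 13.76 and 14.03), the brightest probes of this class, lay between the controls in both knockdown samples.

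H4 genes showed the widest spread between samples of the same group. On the brightest probes 0 of 13 had groups that did not overlap, where 21.2% of all genes lay below both controls and 15.0% above. The second, dimmer probe of HIST1H4K gave -0.33, with both knockdown samples below both controls, so that the probes of this gene disagreed. Its brightest probe gave -0.003. The dimmer probes of HIST1H4A, HIST1H4D and HIST1H4L had overlapping groups. HIST1H4C, on the brightest H4 probe, read 17.27 and 17.34 in the knockdown samples and 16.80 and 17.54 in the controls, so that the controls differed by 0.74 and held both knockdown values between them (0.13, SE 0.21, adjusted p = 0.919). HIST1H4L read 15.43 and 15.13 against 15.15 and 15.55, and HIST1H4I read 11.35 and 11.00 against 11.17 and 11.61. In each of these the order ran from control siRNA2 at the top to siRNA4 or control siRNA1 at the bottom. HIST1H4I, with the lowest H4 value, gave -0.22 (adjusted p = 0.815).

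This order of samples held for most clustered genes. Control siRNA2 was the highest of the 4 samples in 51 of 64 clustered genes (79.7%, against 38.3% of all genes), and siRNA4 was the lowest in 33 (51.6%, against 18.9%). Of the 13 variant genes, control siRNA2 was highest in 5 and siRNA4 lowest in 1. The controls differed from each other by a median of 0.22 in clustered genes and by 0.07 over all genes. Control siRNA2 was the higher in 58 of 64 clustered genes (90.6%, against 68.9% of all genes). By class the median was 0.35 for H4, 0.23 for H3, 0.19 for H2B, 0.18 for H1 and 0.12 for H2A. Between the knockdown samples, siRNA4 minus siRNA3 had a median of -0.12 in clustered genes and -0.30 in H4 genes, while over all genes it was 0.07. With 1 sample on each side these differences have no test. They exceed in size the median difference between the groups, which was -0.08. That value compares means of 2 samples, which vary less than single samples, so the sizes are not directly comparable.

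**Figure D3:**
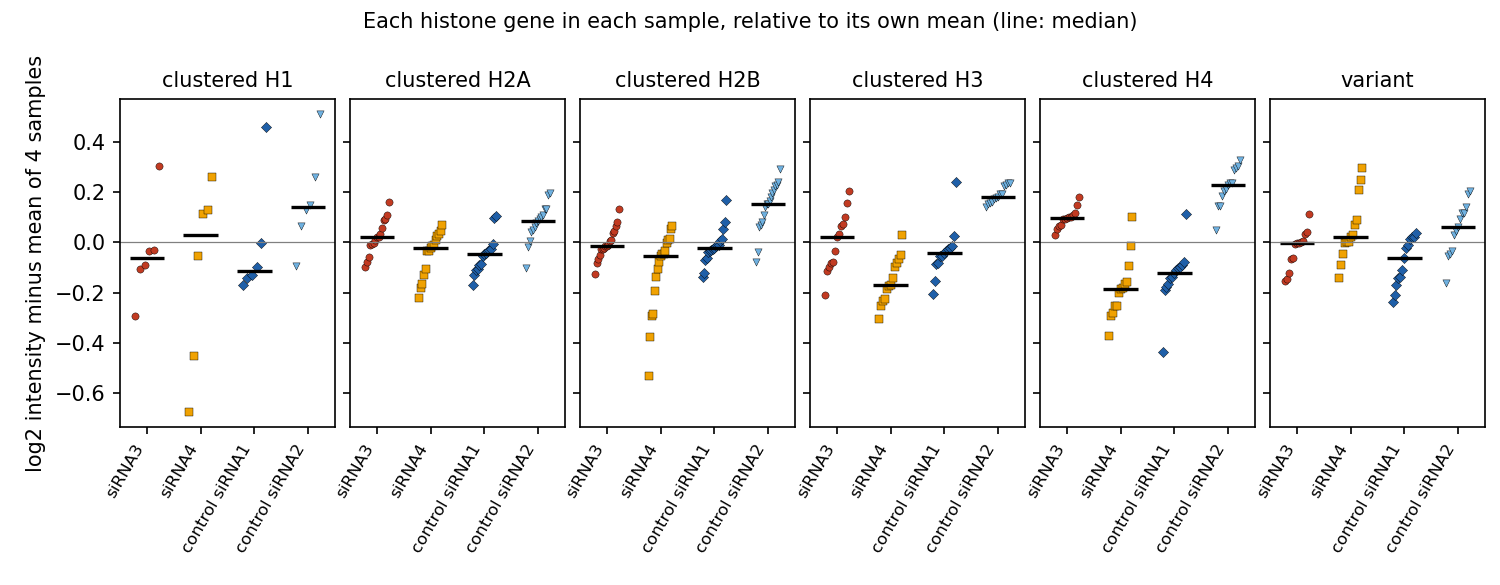
Log2 intensity of each histone gene in each sample minus its mean over the 4 samples, by class, with a line at the median and points sorted within each column. In H4 control siRNA2 lies highest, siRNA3 next, and control siRNA1 and siRNA4 lowest.

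The sign of the knockdown difference therefore turned with the pair compared. Clustered genes had a median of 0.07 for siRNA3 minus control siRNA1 and of -0.12 for siRNA3 minus control siRNA2. For siRNA4 the medians were -0.03 and -0.27. H4 genes spanned 0.23 (siRNA3 minus control siRNA1, 12 of 13 above 0) to -0.41 (siRNA4 minus control siRNA2, 0 of 13 above 0). These pairs share samples and are not independent. After quantile normalization, which set the medians of all genes to 0.00 and 0.01, clustered genes differed by 0.14 between the controls and by -0.22 between siRNA4 and siRNA3. By class the difference between the controls was then 0.28 for H4, 0.16 for H3, 0.11 for H2B, 0.09 for H1 and 0.04 for H2A, smaller in each class than without normalization. Between the knockdown samples it was -0.38 for H4, -0.26 for H3, -0.18 for H2A and -0.13 for H2B, and for H1 it turned from 0.10 to -0.01.

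Of a list of 38 replication and S phase genes other than histones, 37 were measured. Their medians within the groups had the sign of those of the clustered histone genes, at 0.21 for control siRNA2 minus control siRNA1 and -0.11 for siRNA4 minus siRNA3. Between the groups the list had medians of 0.14 and -0.10 for siRNA3 minus control siRNA1 and control siRNA2, and of 0.01 and -0.23 for siRNA4, where the clustered genes had 0.07, -0.12, -0.03 and -0.27. These pairs share samples too. Their median knockdown difference was -0.06, with 26 below 0. Of the list 1 gene was called, lower, as 0.702% of all genes were. The replication factor gene GINS4, which was not called, gave -0.22 (adjusted p = 0.714), with both knockdown samples below both controls. The study also examined the cell cycle of such cells and reported no observed effect of the depletion on its distribution. Those data were not analysed here, and the part of S phase cells in the histone values was not tested. In bulk RNA fewer cells with a transcript and less transcript per cell cannot be told apart.

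**Figure D4:**
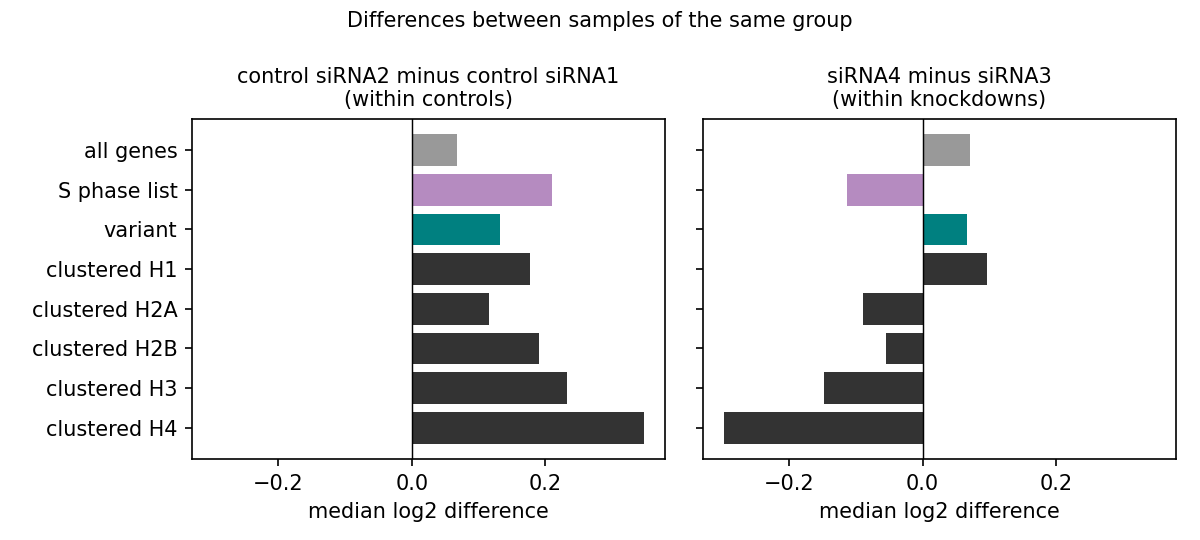
Median log2 difference between the samples of the same group for all 17938 genes, the S phase list, variant histone genes and each class of clustered histone genes, on a common axis. The bars for H4 reach 0.35 between the controls and -0.30 between the knockdown samples, where all genes lie at 0.07 in both.

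Of 18 listed genes that make and process histone mRNA, among them the S phase coactivator NPAT, the stem-loop binding protein SLBP and the U7 snRNP, 17 were measured, 0 were called (1.33% of all genes were) and 1 had an unadjusted p under 0.05 (8.00% of all genes had), and the median was 0.00. The exception was NCBP1, a subunit of the nuclear cap-binding complex, at 9.97 and 10.06 in the knockdown samples against 10.39 and 10.36 in the controls (-0.36, adjusted p = 0.461). NPAT read 7.39 and 7.45 against 7.07 and 7.38, just above both controls (0.19, adjusted p = 0.781). Of 30 listed histone chaperones, which escort histones to and from DNA, 28 were measured, 0 were called and 1 had an unadjusted p under 0.05, against the same 1.33% and 8.00% of all genes, with a median of -0.04. ASF1A, the H3-H4 chaperone, read 7.49 in siRNA3 and 8.05 in siRNA4 against 8.16 and 8.17, so that siRNA3 stood apart (-0.40, adjusted p = 0.616). SUPT16H, a subunit of the FACT complex, read 7.78 and 8.17 against 8.23 and 8.36 (-0.32, adjusted p = 0.640). In both genes siRNA3 was the lower knockdown sample, where the clustered histone genes were mostly lower in siRNA4. Of 5 histone genes named outside the rule 4 were measured, 1 with a log2 fold change below 0 and 3 above, and 0 had an unadjusted p under 0.05. HILS1 read 6.86 and 6.65 in the knockdown samples against 6.70 and 6.27 in the controls, with overlapping groups (0.27, adjusted p = 0.741). H2BFWT was well above background in 1 knockdown sample and in neither control, with both knockdown samples above both controls, and is given no fold. CENPA, the centromeric H3, gave -0.02 and H2BFM 0.06, with overlapping groups in both.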

How the data were processed

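Samples were named by their labels. Which of the siRNAs described in the study's methods the labels siRNA3 and siRNA4 stand for is not given in the sources used here. RNA of THP1 cells was labelled with the Low Input Quick Amp kit and hybridised to 4 single-colour Agilent arrays. The authors extracted spots with Agilent Feature Extraction 10.5.1.1 and deposited 1 intensity for each spot, without background correction or normalization, together with a quality weight, a score of 0, 0.5 or 1 whose rule is not given in the sources used here. In 100% of spots this intensity was the scanner's median pixel value. Without normalization, differences in overall brightness between arrays remain in the values.

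After removal of 1377 control spots from 44495, the 33323 spots (26219 probes) whose weight exceeded 0 on all arrays were kept. Log2 intensities were averaged over identical spots. Knockdown was compared with control by limma 3.58.1 (R 4.3.3), using the weights and no covariate. Calls were made at an unadjusted, two-sided p under 0.005, with Benjamini-Hochberg adjusted p over all probes. An exact permutation test of 2 against 2 samples cannot go below p = 0.333. The number of arrays limits the precision. A gene was given by its brightest probe, and all 77 names matched a current RefSeq symbol. Probes were placed on hg19 as in the scanner tables.

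The members and lists were chosen with earlier results of these data known. Named were every called histone gene, every variant gene, the 10 clustered genes with the largest fall and the 5 with the largest rise among those above background, the 2 brightest clustered genes of each class, and called genes or the 2 largest changes of a list. HIST1H1B, HIST1H1A, HIST1H1T, CENPA, H2BFM, ELANE, CTSG, CSF1R and LCK were named outside this rule, after their values were seen. Alternatives were other normalizations, background corrections, weights, filters, variance models, probe rules and the omission of each sample. Median centring and single spots were chosen after seeing the data. The fit was tested on simulated data. The called gene of the S phase list is not reported here. The other scanner columns and the study's RT-qPCR data were not used here.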

Additional observations from a re-analysis of the deposited data

How the results depend on the processing

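No paired analysis was possible because the groups share no replicate number, and a slide block was not possible with 1 slide. Clustered histone genes called lower, 1 in the reported fit, numbered 0 with the 75th percentile scaling and at an adjusted p under 0.05, 2 with dim probes left out, with an intensity trend or with the mean of all probes, 3 at an unadjusted p under 0.05, and 0 to 2 with 1 sample left out. Histone genes called higher, 0 in the reported fit, numbered 1 after normexp and 2 at an unadjusted p under 0.05. Clustered genes below both controls numbered 7 after quantile or cyclic loess normalization, 6 after normexp, and 14 to 53 with 1 sample left out. Those above both numbered 2 with the background-subtracted signal, scaled or unscaled, and 4 to 20 with 1 sample left out. The shares of all genes above both controls under these settings were not counted, so these counts have no background to be set against. A fit with fewer samples asks for fewer of them to be on the same side. List genes called, 1 in the reported fit, numbered 0 with the background-subtracted signal, scaled or unscaled, 2 after normexp, and 0 to 1 with 1 sample left out. Medians with 1 sample left out ran from -0.22 to 0.011 for clustered genes, from -0.21 to -0.029 for H2B and from -0.25 to -0.025 for H3, and turned sign from -0.25 to 0.089 for H4, -0.17 to 0.099 for H1, -0.095 to 0.048 for H2A and -0.081 to 0.035 for variant genes. The median of siRNA3 minus control siRNA2 over clustered genes turned to 0.017 after quantile normalization and to 0.022 after cyclic loess and after normexp. All genes called, 239 in the reported fit, numbered 151 with the 75th percentile scaling, and 153 without siRNA3, 62 without control siRNA1 and 51 without control siRNA2.

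Genes that were not called changed sign. With the background-subtracted signal, scaled and unscaled, these were H1FNT (-0.051 and -0.081), H2AFB2 (-0.088 and -0.12), HIST1H4C (-0.073 and -0.10) and HIST2H2BE (-0.030 and -0.061), and unscaled also HIST1H1D (-0.012) and HIST1H2AJ (-0.026). After quantile and cyclic loess normalization they were H2AFY (0.0028 and 0.027), H2AFZ (0.028 and 0.032), H3F3B (0.066 and 0.042) and HIST1H4L (0.023 and 0.018). After normexp they were H2AFB2 (-0.019), H2AFV (0.043), H2AFZ (0.035), H3F3B (0.066), HIST3H3 (0.0020) and HIST1H4L (0.016), and with the mean of all probes H2AFV (0.0023) and H3F3B (0.047). With 1 sample left out, values ran from -0.081 to 0.12 for H2AFB2, -0.24 to 0.10 for H2AFB3, -0.18 to 0.22 for H2AFX, -0.19 to 0.055 for H2AFY2, -0.15 to 0.035 for H2AFZ, -0.15 to 0.045 for H3F3B, -0.43 to 0.0041 for HIST1H4I, -0.24 to 0.50 for HIST1H4C, -0.025 to 0.18 for HIST1H1D, -0.068 to 0.20 for HIST1H2AJ, -0.34 to 0.016 for HIST1H1C, -0.095 to 0.14 for HIST1H2AK and -0.27 to 0.13 for HIST1H4L. The cause was not tested.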
